A study of Homo sapiens with 4 samples.

Results

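Peaks of N7-methylguanosine (m7G) at the 5' end of messenger RNAs were examined in HL60 cells (HL-60, wild type in the labels), a human acute myeloid leukaemia line, and in HL60/MX2 cells, a drug-resistant derivative of HL60 selected with mitoxantrone, a topoisomerase II poison. The series holds an antibody-enriched library and an input library of each line, 4 libraries in all, and the authors deposited 1 peak list per line. Both lines were handled alike: poly(A) RNA was treated with a decapping enzyme, fragmented, and enriched with an antibody against m7G. The labels list no drug in the culture medium of either line. A peak belonged to the 5' end when its largest overlap with the coding transcript of its gene fell in the 5'UTR or in the 100 nt on each side of the start codon. The transcript was the one with the longest coding sequence in GENCODE on the hg19 build. Of 6575 HL60 peaks that could be placed on such a transcript, 682 met the rule, 219 of them in the 5'UTR and 463 around the start codon. Of 6610 placed HL60/MX2 peaks, 1164 met it, 373 in the 5'UTR and 791 around the start codon. These 1846 peaks are the members described here, out of 13185 placed and 16192 listed peaks in both lines together. They lay in 667 genes in HL60 and in 1128 genes in HL60/MX2, of 19732 genes with an annotated start codon.

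The 5' end of a messenger RNA normally carries a cap, an m7G joined to the first transcribed nucleotide through a triphosphate bridge. The cap recruits the nuclear cap binding complex and, in the cytoplasm, the initiation factor eIF4E, after which the small ribosomal subunit scans the 5'UTR to the start codon. The same modified base also occurs inside RNA chains, where METTL1 with its partner WDR4 is the best known enzyme that places it. Many human genes start within a CpG island, a GC-rich stretch that keeps its CpG dinucleotides, so that their 5'UTRs are GC-rich as well. How completely the cap had been removed cannot be read from the peak lists.

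Each line had 1 enriched library, so the cell line and its library cannot be told apart, and no difference between the lists was tested. The 95% intervals given with shares are exact Clopper-Pearson intervals, those of medians come from order statistics, and both cover counting error over peaks only. The lists hold positions and a score per peak but no read counts, so the depth of the libraries is unknown. Marker genes could not be checked as expression, because a list of enriched regions does not give RNA levels. Of 13 myeloid genes, the granule protease gene CTSG carried a 5' end peak in HL60 and the proto-oncogene MYB carried one in HL60/MX2. Of 7 measured genes of other cell types, the T cell gene CD3E did so in HL60 and the B cell gene MS4A1 in HL60/MX2. Among all genes, the HL60 list had a 5' end peak for 3.38%, and the HL60/MX2 list for 5.72%. With peaks of any class, the HL60 list held 1 of the 13 myeloid genes but 5 of the 7 others. The HL60/MX2 list held 3 of the 13 and 2 of the 7. Of all 19732 genes, 5312 had a peak of any class in HL60 and 5734 in HL60/MX2. Neither list thus had peaks more often in the myeloid genes than in the others, and both groups are small.

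Start codons under the peaks lay in sequence of widely different GC content. The 30-nt windows below, chosen as examples after their values were seen, begin 12 nt before the start codon, whose letters are in capitals, and were read from hg19 under peaks that cover the start codon. MYOF, which encodes the membrane repair protein myoferlin, and LDHAL6A, a lactate dehydrogenase-like gene, had such a peak in both lines. DYNAP had a 5' end peak in the HL60 list alone. HDAC1, a histone deacetylase, DNMT1, the maintenance DNA methyltransferase, NCBP3, a nuclear cap binding subunit, SUDS3, a subunit of the Sin3 corepressor complex, ATG5, an autophagy gene, and ERCC6, of transcription-coupled repair, had one in the HL60/MX2 list alone. Outside the 5' end, the HL60 list held 4 peaks in ERCC6 and 1 in NCBP3, and the HL60/MX2 list held 1 in DYNAP.
MYOF, chr10:95241934-95241963, minus strand: cagctaagaaccATGctgcgagtgattgtg
LDHAL6A, chr11:18478216-18478245, plus strand: taggtttccaagATGgcaactatcaagagt
DYNAP, chr18:52258424-52258453, plus strand: tttaattgtttcATGgttgcagatataaag
HDAC1, chr1:32757759-32757788, plus strand: gaggcgagcaagATGgcgcagacgcagggc
DNMT1, chr19:10305558-10305587, minus strand: gaagcctccgagATGccggcgcgtaccgcc
NCBP3, chr17:3749500-3749529, minus strand: cggcaggcagcgATGgcggccgtacggggc
SUDS3, chr12:118814485-118814514, plus strand: gtcagaggcgacATGagtgccgcggggctg
ATG5, chr6:106764066-106764095, minus strand: actcctggaagaATGacagatgacaaagat
ERCC6, chr10:50740993-50741022, minus strand: agtctgtagagaATGccaaatgagggaatc
The GC content of the window was 26.7% in DYNAP, 40% in LDHAL6A and 50% in MYOF. It was 70.0% in HDAC1 and SUDS3, 73.3% in DNMT1, 80.0% in NCBP3, 40% in ATG5 and 43.3% in ERCC6. Over the 19 named genes with such a window and a 5' end peak in HL60/MX2 alone, the GC content of the window ran from 40% to 83.3% with a median of 66.7%. Over the 4 with one in HL60 alone it ran from 26.7% to 50%, and over 5 with one in both from 40% to 70%. These genes were named by score, overlap or gene list, so the values describe them and not the lists.

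The difference between the lists in the number of 5' end peaks was almost wholly a difference in peaks over CpG islands. HL60 had 225 5' end peaks that overlapped a CpG island and HL60/MX2 had 689, a ratio of 3.06. Outside islands the counts were 457 and 475, a ratio of 1.04. HL60/MX2 had 482 more 5' end peaks than HL60 and 464 more island ones, 96.3% of the net difference. These are differences of counts and not a set of peaks, since only 54 HL60/MX2 5' end peaks overlapped an HL60 peak. The island ratio was not the same at all GC contents. Among island peaks below 60% GC the counts were 110 and 145, a ratio of 1.32, and among those at 60% or above they were 115 and 544, a ratio of 4.73, with the limit of 60% chosen after the values were seen. An island was taken as a stretch of at least 200 bp with a GC content of at least 50% and an observed over expected CpG ratio of at least 0.6. The share of 5' end peaks in an island was 33.0% (95% interval 29.5 to 36.7) in HL60 and 59.2% (56.3 to 62.0) in HL60/MX2. Over all placed peaks, the background share was 11.4% in HL60 and 21.7% in HL60/MX2. Island peaks in the coding region, around the stop codon and in the 3'UTR also differed in number, with 526 in HL60 and 744 in HL60/MX2, a ratio of 1.41. In those classes the peaks outside islands were fewer in HL60/MX2, 4702 against 5367 in HL60.

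**Figure D1:**
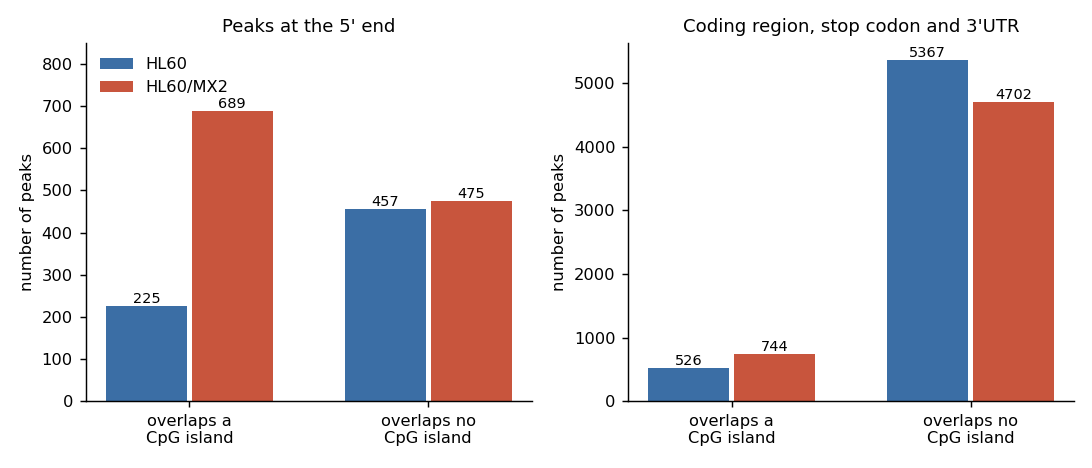
Number of peaks (vertical axis) that overlap a CpG island or none, in the HL60 list (blue) and the HL60/MX2 list (red), for 5' end peaks on the left and all other placed peaks on the right. At the 5' end the island bars stand at 225 and 689 while the bars outside islands stand at 457 and 475.

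Set against the sequence available, the HL60 list was poor in island peaks at the 5' end. The 5' end regions of all coding transcripts summed to 6.42 Mb, of which 56.2% was island sequence. HL60 had 62.3 island peaks per Mb of island sequence and 163 other 5' end peaks per Mb outside islands. HL60/MX2 had 191 and 169 per Mb. Both lists were divided by the same sequence, so between the lists these densities restate the counts above, close outside islands and apart inside them.

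The same contrast appeared when genes were counted in place of peaks. Most genes with a 5' end peak held a single one, so this is close to a recount of the peaks. Of 14133 genes whose transcript starts in an island, 397 (2.81%, 95% interval 2.54 to 3.09) had a 5' end peak in HL60 and 874 (6.18%, 5.79 to 6.59) had one in HL60/MX2. Of 5599 genes that start outside islands, 270 (4.82%, 4.28 to 5.42) and 254 (4.54%, 4.01 to 5.11) did. The background over all genes was 3.38% in HL60 and 5.72% in HL60/MX2. Counted by gene, the shares with a peak elsewhere differed little between the lists. Counted by peak, island peaks of the other classes did differ, with 526 in HL60 and 744 in HL60/MX2. Of the genes with an island start, 21.5% had a peak outside the 5' end in HL60 (HL60/MX2 21.9%). For genes without an island start the shares were 20.6% and 19.2%.

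**Figure D2:**
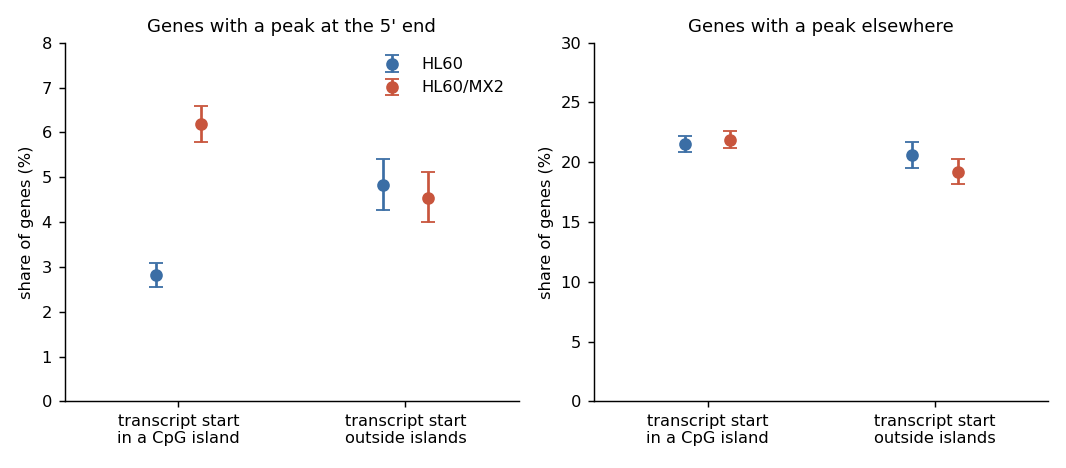
Share of genes (vertical axis, %) with a 5' end peak (left) and with a peak elsewhere (right), for genes whose transcript starts inside or outside a CpG island. Points are the HL60 (blue) and HL60/MX2 (red) lists and bars are exact 95% intervals. The lists stand apart at 2.81% and 6.18% for 5' end peaks of genes with an island start.

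GC content differed as well. The median GC content of 5' end peaks was 50% (95% interval 48.8 to 51.0) in HL60 and 60.6% (59.1 to 61.5) in HL60/MX2. Outside islands the medians were 46.6% in both lists. Inside islands they were 60% (59.0 to 63.2) and 68.5% (67.5 to 69.1), so the lists differed in GC content even among island peaks. The 5' end regions of all coding transcripts had a median GC content of 61.3%. The corresponding regions of genes with a 5' end peak had a median of 53.7% in HL60 and 59.3% in HL60/MX2. CpG dinucleotides stood at a median of 0.32 of the expected number in HL60 5' end peaks and 0.67 in those of HL60/MX2.

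The split fell at a GC content of about 60%. Below 60% HL60 had 534 5' end peaks and HL60/MX2 had 566, a ratio of 1.06. At 60% or above there were 148 and 598, a ratio of 4.04. Outside islands the counts at 60% or above were 33 and 54, a ratio of 1.64. In the bin from 60 to 70% the 5' end counts were 93 and 294, and in the bin from 70 to 80% they were 44 and 249. Peaks of the other classes at 60% or above numbered 427 in HL60 and 689 in HL60/MX2, a ratio of 1.61. Differences in GC content between the lists were therefore not limited to the 5' end, but the ratio was larger there. At 60 to 70% GC, 21.0% of peaks (17.3 to 25.1) lay at the 5' end in HL60, against 34.5% (31.4 to 37.9) in the resistant line. At 40 to 50% GC the shares were 8.29% and 9.46%. Whether recovery of GC-rich fragments differed between the libraries was not tested.

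**Figure D3:**
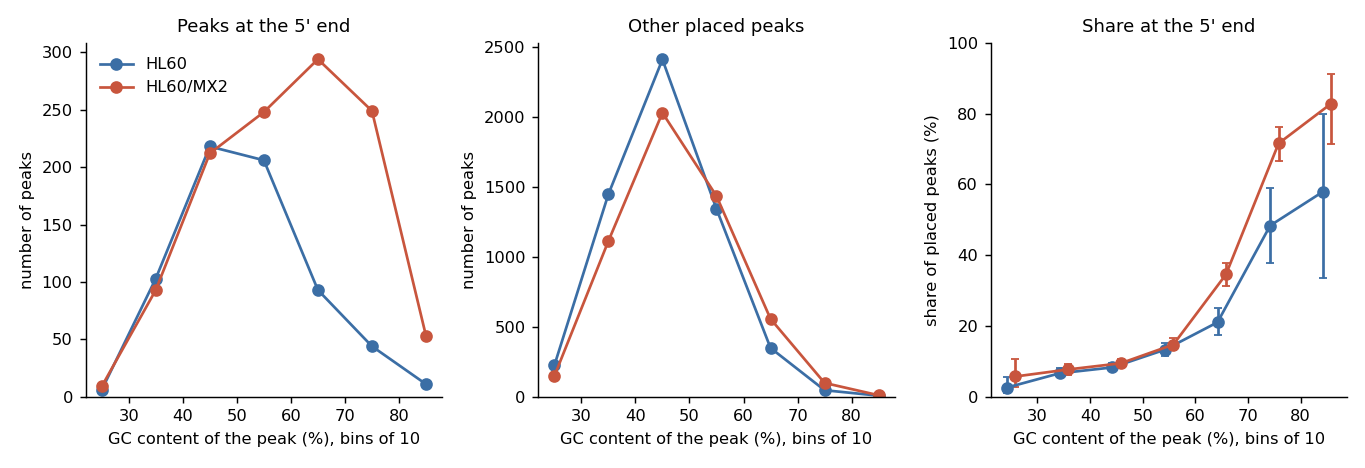
Number of 5' end peaks (left), number of other placed peaks (middle) and share of placed peaks at the 5' end (right, with exact 95% intervals) by GC content of the peak in bins of 10%, for HL60 (blue) and HL60/MX2 (red). The 5' end counts run together up to 50% GC and separate from the bin at 60 to 70% upward, where they are 93 and 294.

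Position along the transcript also differed, and mostly through the island peaks. Of the 5' end peaks, 381 (55.9%, 52.0 to 59.6) lay mainly in exon 1 in HL60 and 794 (68.2%, 65.5 to 70.9) in HL60/MX2. Exon 1 holds 70.3% of the 5' end sequence of all coding transcripts. Island peaks lay in exon 1 in 89.3% of cases in HL60 and 91.1% in HL60/MX2. Peaks outside islands lay there in 39.4% and 34.9%, and more often in exon 2, with 202 of 457 (44.2%) in HL60 and 232 of 475 (48.8%) in HL60/MX2. The start codon was in a later exon than exon 1 in 34.9% of all genes, in 58.5% of genes with an HL60 5' end peak and in 50.3% of those with an HL60/MX2 5' end peak. Genes with a 5' end peak also had longer 5'UTRs, with a median of 211 nt in HL60 and 192.5 nt in HL60/MX2 against 140 nt over all genes. In genes with peaks elsewhere only, the medians were 160 nt in HL60 and 161 nt in HL60/MX2. A longer 5'UTR offers more sequence to the rule, and its part in these values was not tested.

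The median distance from the first base of the transcript to the nearest base of the peak was 93 nt (76 to 112) in HL60 and 41.5 nt (29 to 56) in HL60/MX2. For island peaks the medians were 7 and 1 nt, and for peaks outside islands they were 130 and 139 nt. The first base itself was covered by 193 peaks (28.3%) of HL60 and by 432 (37.1%) of HL60/MX2. Of these, 120 and 334 also reached upstream of the annotated first base, and 73 and 98 began exactly on it. The start codon was covered by 254 peaks (37.2%, 33.6 to 41.0) in HL60 and 510 (43.8%, 40.9 to 46.7) in HL60/MX2. Among island peaks these shares were 36.9% (30.6 to 43.6) and 50.5% (46.7 to 54.3), and among peaks outside islands 37.4% and 34.1%. Island peaks leaned to the transcript start in both.

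**Figure D4:**
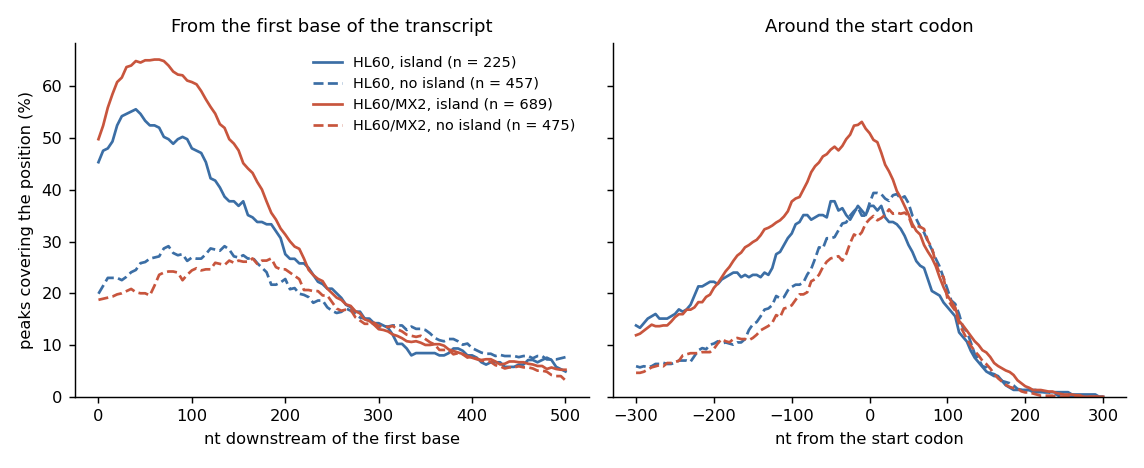
Share of 5' end peaks (vertical axis, %) that cover each position, by nt downstream of the first transcribed base (left) and by nt from the start codon (right). Solid lines are island peaks and dashed lines are peaks outside islands, in HL60 (blue, n = 225 and 457) and HL60/MX2 (red, n = 689 and 475), and at the first base the island lines stand above the dashed lines in both lists.

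Peaks often ended at an exon boundary. An exon boundary coincided with an edge in 521 (76.4%) of the HL60 5' end peaks and 870 (74.7%) of those in HL60/MX2, against 69.8% of all placed peaks in each list. The background is mixed: peaks of the coding region had one in 89.4% and 87.9%, those of the 3'UTR in 9.03% and 8.71%. Within the 5' end the share was 61.2% and 61.1% in the 5'UTR and 83.6% and 81.2% around the start codon, below that of the coding region. The median length was 115 bp in HL60 and 141 bp in HL60/MX2. Island peaks were longer, with medians of 162 and 183 bp, than peaks outside islands, with 101 and 90 bp. The shortest had 2 bp in HL60 and 1 bp in HL60/MX2, and 126 and 157 were shorter than 50 bp.

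The deposited score, whose scale the sources used here do not define, was read only as a rank within each list. In HL60 the median 5' end peak stood at percentile 54.0 (49.2 to 58.6) of the list and in HL60/MX2 at 50.1 (47.0 to 53.2), with both intervals holding the middle of the list. The order of island and other peaks was opposite in the lists. In HL60, island peaks had a median percentile of 47.9 (44 to 57.2) and the rest 55.7 (51.5 to 60.2), with intervals that overlap. In HL60/MX2, island peaks had 53.2 (49.3 to 56.8) and the rest 46.9 (42.1 to 50.9), which also overlap. Among HL60/MX2 5' end peaks with scores in the top 25% of the list, 68.2% (62.7 to 73.3) were island peaks, against 55.6 to 56.3% in the 3 lower score classes of equal size. In HL60 the share was 30.7% in the top class and 28.5 to 37.5% in the lower ones.

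**Figure D5:**
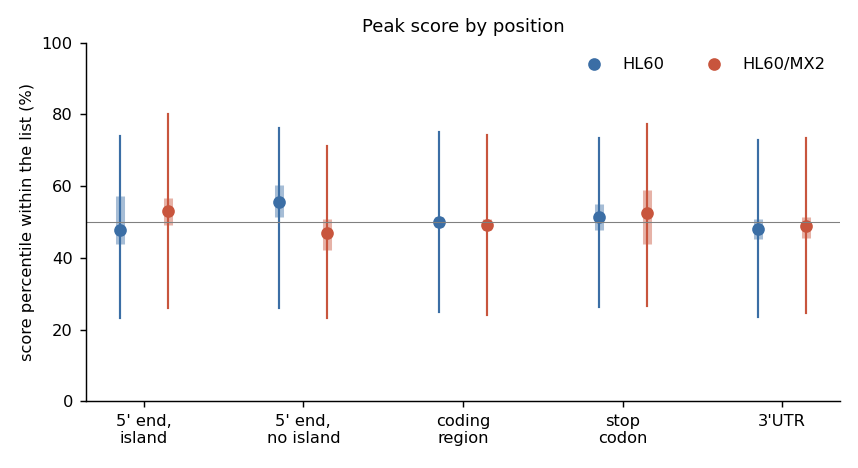
Score percentile within each list (vertical axis, %) of island and other 5' end peaks and of peaks in the coding region, at the stop codon and in the 3'UTR, for HL60 (blue) and HL60/MX2 (red). Points are medians, wide bars their 95% intervals and thin lines the quartiles, and all medians lie between percentiles 46.9 and 55.7.

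The strongest 5' end peaks of the lines were of different kinds. Of the 10 with the highest score in HL60, 4 overlapped an island, 3 lay in exon 1, 5 were shorter than 50 bp and GC content ran from 39.1 to 66.7%. Of the 10 in HL60/MX2, 10 overlapped an island, 10 lay in exon 1, 7 covered the start codon, 7 covered the first base, and GC content ran from 54.8 to 79.3%. Genes of the HL60/MX2 set had no peak anywhere in the HL60 list in 10 of 10 cases. Of the HL60 set, 6 genes had some peak in the HL60/MX2 list and 3 had one at the 5' end. Over all 19732 genes, 5312 had a peak of any class in HL60 and 5734 in HL60/MX2. Of 1724 genes with a 5' end peak in either list, 71 had one in both. The paper reports that only a minority of modified genes were common to the lines, so absence from the other list is frequent. Whether these 10 genes per list differ from the rest in this was not tested.

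In HL60 the highest score, 2992.60, belonged to ZNF585A, a zinc finger gene, with a peak of 115 bp at 47.0% GC over the first base (chr19:37663529-37663643, minus strand). PLEKHH2 followed with a score of 2322.96, its peak of 126 bp covering the start codon in exon 2 at 45.2% GC. SNX32, which encodes a sorting nexin, scored 2322.62 with a peak of 24 bp. MYOF scored 2179.75 with a peak of 211 bp. Length thus differed widely among the leading peaks.
The other HL60 genes of this set were DENND2B, a regulator of Rab GTPases (2058.31), DPYSL4 (1906.16), AMY1C, a salivary amylase with near-identical copies (1902.30), the cilium gene CFAP74 (1427.28), SMIM14 (1306.92) and the interferon-induced GTPase gene MX1 (1247.71).

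In HL60/MX2, 8 5' end peaks shared the highest score of the list, 3100, which 53 peaks held in all. They lay in MPZL1, a cell surface glycoprotein, FRA10AC1, TWNK, the mitochondrial DNA helicase, SUDS3, RAB20, a small GTPase, ASPHD1, PDCD5, a gene linked to programmed cell death, and SLC25A12, the mitochondrial aspartate-glutamate carrier. LPCAT2, a lysophospholipid acyltransferase, followed with 2934.32 and PTP4A2, a protein tyrosine phosphatase, with 2759.46. The peak of PDCD5 (chr19:33072094-33072233, plus strand) held 140 bp at 71.4% GC and covered the first base and the start codon. That of SUDS3 (chr12:118814360-118814594, plus strand) held 235 bp at 74.5% GC and did so too, beginning exactly on the first base. That of RAB20 (chr13:111213742-111214069, minus strand) held 328 bp at 70.1% GC. SLC25A12 was the exception in size, with 17 bp over the start codon.

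Few 5' end peaks were found at the same place in the other line. Of the HL60 5' end peaks, 54 (7.92%, 6.0 to 10.2) overlapped a peak of the HL60/MX2 list by at least 1 bp. Of the HL60/MX2 5' end peaks, 54 (4.64%, 3.50 to 6.01) overlapped a peak of HL60. The background over all placed peaks was 6.17% in each list, within the HL60 interval and just above that of HL60/MX2. Because 54 peaks overlapped in each list, these shares differ only through the number of 5' end peaks, 682 and 1164. The number of island peaks enters the shares among island peaks in the same way. Among island peaks the shares were 12.9% (8.8 to 18.0) of the 225 in HL60 and 3.77% (2.48 to 5.48) of the 689 in HL60/MX2. Outside islands they were 5.47% and 5.89%. A 5' end peak in both lists was found for 71 genes, which is 10.6% of the HL60 genes and 6.29% of the HL60/MX2 genes, of 1724 genes with one in either. The peaks overlapped in 52 of the 71. The median overlap over 54 pairs was 118.5 bp, and 6 pairs had identical coordinates.

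The pairs with the longest overlap were LDHAL6A with 407 bp, SNRPC, a subunit of the U1 spliceosomal particle, with 394 bp, C18orf54 with 367 bp, ADD3, which encodes an adducin of the membrane skeleton, with 347 bp, and ZNF577 with 331 bp. The next were C9orf152 with 260 bp, MAGI2, a synaptic scaffold gene, with 241 bp, the interferon-induced IFIT3 and the cerebellin gene CBLN4 with 227 bp each, and MYOF with 211 bp. The standing of such a peak could differ between the lists. ADD3 stood at percentile 1.49 in HL60 and 59.0 in HL60/MX2, with identical coordinates at 67.4% GC. H2AZ2, a histone H2A variant gene, stood at percentile 4.32 in HL60 and 80.9 in HL60/MX2 at 80.3% and 77.2% GC. LDHAL6A stood at 82.4 and 33.0 at 47.7% GC in both. MYOF stood high in both, at 99.7 and 89.0. Other genes had 5' end peaks in different exons, such as MX1, in exon 5 in HL60 and in exon 2 in HL60/MX2, and DENND2B, in exon 3 and exon 2.

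Genes rarely held more than 1 such peak. In HL60, 652 of 667 genes (97.8%) and in HL60/MX2 1093 of 1128 (96.9%) had a single 5' end peak, and 64.3% and 71.1% had no other peak in the list at all. SNRPN, an imprinted gene of the small nuclear ribonucleoproteins, had 3 in HL60/MX2, in exons 1, 2 and 3, with scores of 892.05, 137.92 and 55.16 and GC contents of 67.1, 52.1 and 37.0%. ATG5 had 1 in exon 1 at 68.5% GC and 1 over the start codon in exon 2 at 39.2% GC in HL60/MX2. NHLH2, a transcription factor gene with a single exon, had its pair in HL60/MX2 as well. In HL60, ADAMTS6, a metalloprotease gene, and GNRH1, the gonadotropin-releasing hormone gene, each had a pair.

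Short sequence motifs were counted in the central 100 nt of peaks of at least 100 bp, on the strand of the transcript, and in the central 100 nt of the 5' end region of every coding transcript. GCGGC was present in 11.9% of 394 HL60 peaks (8.90 to 15.5) and 35.3% of 765 HL60/MX2 peaks (31.9 to 38.8), against 28.7% of 19694 transcript regions. Among island peaks the shares were 28.5% (21.6 to 36.2) and 47.6% (43.4 to 51.8). GGAA followed by a purine was present in 36.5% (31.8 to 41.5) and 31.1% (27.8 to 34.5), against 29% of the regions, below the HL60 interval. The paper reported this motif and the next one from these same peaks, so their counts are no independent support. The regions had a median GC content of 61.3%, against 50% in HL60 5' end peaks, and the part of this was not tested. CTG followed by guanine or thymine and then a purine was present in 49.5% and 51.8%, against 51.1%. A match is a string of letters and no evidence of a bound factor or of methylation.

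Runs of G that could form a G-quadruplex, written as 4 runs of at least 3 G with loops of 1 to 7 nt, were present in 6 of 394 HL60 peaks (1.52%, 0.561 to 3.28) and 41 of 765 HL60/MX2 peaks (5.36%, 3.87 to 7.20), against 2.47% of the transcript regions. Among the island peaks they were present in 2.53% (0.694 to 6.35) in HL60 and 7.18% (5.18 to 9.65) in HL60/MX2. Examples were taken from the whole length of peaks, while the counts cover the central stretch alone. The HL60/MX2 peak of RAB20 and the HL60 peak of ADAMTS6 in exon 1 hold a match, shown with the runs of G in capitals. The match of RAB20 lies within the central stretch of its peak and that of ADAMTS6 lies outside it.
RAB20, chr13:111213880-111213906, minus strand: GGGGagaGGGcgcGGGGGcgctGGGGG
ADAMTS6, chr5:64777451-64777477, minus strand: GGGGGGtGGGGaGGGagagaaaGGGGG
The excess of G over C pointed the same way. The median of G minus C, in percent of the peak's bases, was 3.85 (2.46 to 5.71) in HL60 island peaks and 8.0 (6.91 to 8.74) in HL60/MX2 island peaks.

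The context of the start codons under the peaks was compared with that of all start codons. An A or G at position -3, counted back from the A of the start codon, was found in 84.4% of 18900 start codons in all, in 81.6% (76.1 to 86.2) of 244 under an HL60 5' end peak and in 88.8% (85.7 to 91.4) of 500 under an HL60/MX2 5' end peak. A G right after the start codon was found in 50.5%, 51.2% and 51.0%. The interval of the HL60/MX2 share at -3 lay above the value of all start codons, and that of the HL60 share held it.

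Gene groups were read against the background of 3.38% of genes in HL60 and 5.72% in HL60/MX2. Zinc finger genes were the group with the most members: 45 of 558 (8.06%) had a 5' end peak in HL60, 58 (10.4%) had one in HL60/MX2, and 10 had one in both. The peak overlapped an island in 16 of the 45 and in 29 of the 58. ZFP37 in HL60 had a peak of 235 bp at 68.1% GC and ZFP64 in HL60/MX2 had one of 302 bp at 66.9% GC, both over the start codon. The families include near-identical copies whose reads can be assigned to the wrong member, as do AMY1C, PRAMEF15, EIF3C and the olfactory receptors. Homeobox factors had 4 of 132 (3.03%) in HL60, HOXB6 among them, and 8 (6.06%) in HL60/MX2, among them HOXB3, HOXB8, HOXD4, IRX3 and LHX1, both close to the background.

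Among genes of the translation machinery, few had a 5' end peak. Of 88 ribosomal protein genes, none had one in HL60 and RPS27L had one in HL60/MX2, while 3 and 2 had a peak of any class. A peak of any class was found in 5312 of all 19732 genes in HL60 and in 5734 in HL60/MX2. Of 56 initiation factor genes, EIF3H had one in HL60 (1.79% of the list), and EIF2AK4, a stress kinase of eIF2, and EIF3C, a scaffold subunit of eIF3, had one in HL60/MX2 (3.57%). The background over all genes was 3.38% and 5.72%. Of 25 genes for cap and m7G enzymes and cap binding proteins, 1 (4%) had one in HL60. It was CMTR1, which methylates the first transcribed nucleotide, at 73.2% GC and percentile 12.3. NCBP3, at percentile 97.1, and RAMAC, the activator of the cap methyltransferase, at percentile 41.7, had one in HL60/MX2 (8% of the list). METTL1 and WDR4 had none in either list. Of 79 histone genes, H2AZ2 alone had one, in both lines (1.27% of the list in each).

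Some lists had members with a 5' end peak in HL60/MX2 and none in HL60. Of 51 chromatin modifiers, 4 (7.84%) had a 5' end peak in HL60/MX2. HDAC1 had one of 112 bp at 68.8% GC (percentile 97.2) and DNMT1 one of 260 bp at 71.5% GC (percentile 78.8), both over the start codon. SMARCA4, the ATPase of the BAF remodelling complex, had one at 79.1% GC and BRD3, a reader of acetylated histones, one at 81.8% GC. Of 34 genes of the RAF and MAP kinase pathway, 3 (8.82%) had one: HRAS, a small GTPase, at 85.2% GC over the first base, the adaptor GRB2 at 46.5% and the inhibitor SPRY2 at 57.8%. Of 45 topoisomerase and DNA repair genes, 3 (6.67%) had one: TOP3B, a type I topoisomerase, at 69.8% GC, XRCC6, which encodes Ku70, at 63.8%, and ERCC6 at 43.0%. ERCC6 also had 4 peaks outside the 5' end in the HL60 list. The paper lists it first among genes with lower methylation in HL60/MX2, at another position. Of 36 driver genes of acute myeloid leukaemia, 2 (5.56%) had one, the cohesin genes SMC3 and STAG2, whose peaks of 31 and 13 bp lay outside islands. Against 5.72% of all genes these shares rest on 2 to 4 genes each. The HL60 background was 3.38% of all genes, low enough that lists of 34 to 51 genes can hold none.

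Other lists had fewer members in HL60/MX2 than in HL60. Olfactory receptor genes, 6 of 380 of which start in an island, had 10 (2.63%) in HL60 and 3 (0.789%) in HL60/MX2. Protocadherin genes had 2 of 66 (3.03%) in HL60, PCDH7 and PCDHB7, and none in HL60/MX2. Of 48 ABC transporter genes, which include the drug efflux pumps, ABCA5 had a 5' end peak in HL60 and ABCA8 had one in each line. The peaks of ABCA8 lay in different exons, and all lay outside islands. The shares of this list were 4.17% in HL60 and 2.08% in HL60/MX2. Over all genes they were 3.38% and 5.72%, and the protocadherin and ABC transporter shares rest on 2 genes or fewer each.

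Peaks near the limit of the rule were less GC-rich than 5' end peaks as a whole, though by little in HL60 just inside the limit. Peaks that met the rule at 100 nt but not at 50 nt numbered 126 in HL60 and 204 in HL60/MX2, of which 20.6% and 44.6% overlapped an island. Peaks that would have met it at 200 nt but not at 100 nt numbered 262 and 322, of which 11.8% and 19.3% did. Their median GC contents were 48.7% and 56.2% just inside, and 46.9% and 49.0% just outside. Over all 5' end peaks they were 50% in HL60 and 60.6% in HL60/MX2.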

How the data were processed

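RNA of HL60 and HL60/MX2 cells was enriched with an m7G antibody and sequenced beside input. The authors trimmed reads with Cutadapt 1.9.3, aligned them with Hisat2 2.0.4, called enriched regions with MACS on hg19 and kept those over exons of protein-coding genes. Each deposited list, 1 per line, holds positions, strand and a score per peak. The MACS version, settings and the scale of the score are not given in the sources used here. Input libraries have no list and were not analysed here. Each peak was given the gene of its largest same-strand exon overlap (GENCODE release 44, lifted to hg19) and a class on that gene's transcript with the longest coding sequence. Annotation by another release would move first bases and classes. Sequence, GC content and CpG islands were read from hg19 (Python 3.11.15, pysam 0.24.0, scipy 1.17.1). Classification and island calls were tested on simulated data. No test was run between lines.

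The members, gene lists and rules were chosen with earlier results of these data known. Named genes were the 10 with the highest score per list, up to 10 overlapping pairs by length, up to 6 per gene list in alphabetical order, up to 3 with the most peaks, and 5 of highest score that begin on the first base. Alternatives covered class, window, transcript, score, length, island and overlap rules. One gene of a list, PECAM1, was not matched to a transcript under the rule and was not used.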

Additional observations from a re-analysis of the deposited data

How the results depend on the processing

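The 5' end share, island share, exon 1 share, GC content and distance to the transcript start were compared between the lists under each alternative. Their order was the same under every alternative run for each. So was the order of the share found in the other list, which the larger number of HL60/MX2 5' end peaks largely sets. The order of the median score percentile turned in 1 of 7, with scores at or above the list's median (49.5 in HL60 and 52.5 in HL60/MX2). Of 132 recomputed values, 87 stayed within the interval of the value as reported, or within 1.5 times a count or ratio. The others follow, HL60 first and HL60/MX2 after it where both are given. With a start codon window of 50 nt to either side the 5' end share was 8.46% and 14.5%, the exon 1 share 63.5% and 74.4%, the distance 70 and 25.5 nt, and the HL60/MX2 island share 62.3%. With 200 nt the 5' end share was 14.4% and 22.5%, the island share 27.1% and 50.5%, the exon 1 share 43.3% and 55.9%, the distance 146 and 97 nt, the HL60/MX2 GC content 57.4%, and 118 genes were shared. With the transcript of greatest exon length the HL60 5' end share was 11.3% and the HL60/MX2 distance 63 nt. With any coding transcript, 5' end first, the 5' end share was 20.2% and 27.4%, the island share 26.3% and 47.7%, the HL60/MX2 exon 1 share 61.7%, its GC content 55.3%, its distance 66 nt, and 256 genes were shared. With scores at or above the median the share found in the other list was 5.25% and 2.91%, the HL60/MX2 island share 62.2%, its exon 1 share 72.5%, its distance 27 nt, and 27 genes were shared. With peaks of at least 50 bp the exon 1 share was 59.7% and 72.7%, the distance 74 and 21 nt, the HL60/MX2 island share 64.3% and its GC content 62.0%. With islands of at least 500 bp, 55% GC and a ratio of 0.65 the island share was 25.7% and 52.7%. With an overlap of 50% of both peaks, 5.72% of the HL60 peaks were found in the other list. These shifts in definition change which peaks are counted.

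The ratios of HL60/MX2 to HL60 counts were chosen as a measure after seeing the data. Under the class, window, transcript, score, length and island settings above the ratio of island peaks ran from 2.50 to 3.51 and that of other 5' end peaks from 0.867 to 1.08. With peaks below 60% GC alone, the 5' end share was 8.90% and 10.6% and the ratio of island peaks 1.32.

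No paired analysis was possible because each line has 1 enriched library and no test was made. The number of reads behind a peak is unknown, so a peak listed in one line alone is not shown to be absent in the other. Of the transcripts counted, 707 of 19732 have no annotated 5'UTR, 21 of them among the 1724 genes with a 5' end peak.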

Other observations

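The share of placed peaks at the 5' end was higher in HL60/MX2 than in HL60 on each of chromosomes 1 to 21 and X, and equal at 20% on chromosome 22. The widest gaps were on chromosome 16, with 7.38% in HL60 and 21.0% in HL60/MX2, and on chromosome 17, with 8.17% and 21.0%. Chromosome 19, where many zinc finger genes lie, had 18.6% and 27.5%, with 10 island peaks of 45 in HL60 and 56 of 99 in HL60/MX2. These are counts over peaks of 1 list per line.

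Peaks that begin exactly on the first transcribed base included, by score, those of CDKAL1, a transfer RNA methylthiotransferase (871.69), YES1, a Src family kinase (851.04), DYNAP (764.62), PRAMEF15 (686.79) and ITPR3, a calcium channel of the endoplasmic reticulum (636.71) in HL60. In HL60/MX2 they included RAB20 and SUDS3 (3100 each), ZNF345 (2594.12), KTN1, a kinesin-binding protein (1189.85), and FCRLB (1063.56). The peak of PRAMEF15 had the same coordinates in both lists. That of KTN1 held 148 bp at 80.4% GC, and that of YES1 held 78 bp at 42.3% GC.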
